A study of Homo sapiens with 9 samples.

Results

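The cytosolic heat shock protein genes were followed as a family of 10 genes: HSPA1A, HSPA1B, HSPA6, HSPA7, HSPA8, HSPH1, DNAJB1, HSP90AA1, HSP90AB1 and HSPB1. They were taken by symbol, the first row of each symbol being used, and all 10 were among the 30000 rows of the count table and among the 18437 rows that held enough reads to be tested. The cells were THP-1, a human monocytic leukaemia line that is often used as a stand-in for monocytes. The 9 RNA-seq libraries formed 3 groups of 3: control cells, cells given scramble ectosomes (Scramble_Ecto) and cells given PKM2-knockdown ectosomes (PKM2_KD_Ecto). Ectosomes are vesicles shed from the plasma membrane, and these came from Huh7, a human hepatoma line. The labels put the shRNA on samples of THP-1 cells, and the series title was used to read it as the shRNA of the Huh7 donors. PKM2, an isoform of pyruvate kinase, was thus taken as knocked down in the ectosome donors, which the labels alone do not settle. On this reading every group was THP-1, a single line with no genetic change of its own. Dose, preparation and incubation time of the ectosomes are not given in the labels used here. Nothing in the labels says that the replicates were separate cultures, so each p-value measures only how these libraries spread, and that spread may be technical.

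Cytosolic heat shock proteins are chaperones, which hold or refold other proteins and keep them from clumping. HSP70 proteins bind unfolded stretches in a cycle driven by ATP. J-domain proteins such as DNAJB1 bring them clients, HSP110 proteins such as HSPH1 reset them by exchanging their nucleotide, and HSP90 takes over many half-folded kinases and receptors. Heat and other stress that unfolds cytosolic proteins releases the transcription factor HSF1, which binds heat shock elements, inverted repeats of the letters GAA and TTC, before these genes. HSPA1A, HSPA1B and HSPA6 are the classic inducible HSP70 genes, whereas HSPA8 and HSP90AB1 are the constitutive members of their families.

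The heat shock elements before the members show what the family shares in sequence. In the 250 bases before each start site in RefSeq (build GRCh38.p14), both strands were searched for the 2-unit elements GAANNTTC and TTCNNGAA and for the 3-unit elements GAANNTTCNNGAA and TTCNNGAANNTTC, which contain the shorter ones. RefSeq promoters were found for 9 members, HSPA7 having no entry, and because DNAJB1, HSP90AA1 and HSP90AB1 have several starts there were 14 promoters in all. Of these 14, 8 held a 2-unit element, against 11.6% of all 35116 promoters, and 4 held a 3-unit element, against 0.441% of all promoters. These 8 belonged to 8 different genes, and the other starts of DNAJB1, HSP90AA1 and HSP90AB1 held no match. The longest match of each gene, and the one nearest to the start among equals, is printed below with the element in capitals.
HSPA1A: aaccctgGAATATTCccgacct
HSPA1B: acccctgGAATATTCccgacct
HSPA6: ggaaaggTTCGCGAAAGTTCgcggcgg
HSPA8: gggccccTTCTGGAAGGTTCtaagata
DNAJB1: ggctctgGAAGCTTCcgccgga
HSP90AA1: agggttcTTCCGGAAGGTTCgggaggc
HSP90AB1: gagattgTTCTGGAAGCTTCtggattc
HSPB1: aacgagaGAAGGTTCcagatga
These windows lie at chr6:31815430-31815451 (plus strand) for HSPA1A, chr6:31827626-31827647 (plus) for HSPA1B, chr1:161524459-161524485 (plus) for HSPA6, chr11:123062172-123062198 (minus) for HSPA8, chr19:14518430-14518451 (minus) for DNAJB1, chr14:102087113-102087139 (minus) for HSP90AA1, chr6:44247824-44247850 (plus) for HSP90AB1 and chr7:76302484-76302505 (plus) for HSPB1. The windows of HSPA1A, HSPA1B, HSPA6 and HSPB1 fell before the gene in GENCODE release 29. Those of DNAJB1 and HSP90AB1 fell inside the gene but in no exon, and those of HSPA8 and HSP90AA1 in an exon of another transcript of the gene. The element began 47 bases before the start in DNAJB1, 55 in HSPA8, 74 in HSPA6, 88 in HSP90AA1, 105 in HSPA1B, 106 in HSPA1A, 112 in HSP90AB1 and 182 in HSPB1. HSPA1A and HSPA1B thus carried the same element at almost the same distance. The 250 bases before HSPH1 held none of the searched letters. A match of letters is not a binding site, and no binding was measured here.

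Copies of a gene can exchange reads, so the length of sequence each member shares with another gene was measured in windows of 100 bases of its GENCODE transcripts. HSPA1A shared 67.3% of its windows and HSPA1B 72.7%, nearly all of them with each other. HSPA6 shared 27.6% of its windows with HSPA7, and HSPA7 34.4% with HSPA6. The other members shared 0 to 2.37%. Reads of the HSPA1A and HSPA1B pair, and to a lesser extent of the HSPA6 and HSPA7 pair, may therefore have been split or left uncounted by the authors' counting. The counting is not stated to use strand, so DNAJB1, which overlaps TECR on the other strand, and HSP90AA1, which overlaps WDR20, may hold reads of those genes. HSPA6 lies inside a clone-named locus on its own strand, and HSPA8 hosts small nucleolar RNAs in its introns.

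Levels are TMM-scaled CPM, that is counts relative to the library's scaled total, fold changes are edgeR estimates, and adjusted p is from edgeR's quasi-likelihood test over all 18437 rows, with 0.05 as the threshold. The libraries held 17744587 to 23864381 counts. Among the controls, replicate 3 stood apart: 1250 rows differed from the other controls by at least 2-fold, against 121 to 165 for those and 24 to 38 for any library given ectosomes. The members' changes against control are therefore also given without it. Of 12 monocyte and myeloid markers, all 12 were detected, CD68 lowest at 0.314 CPM in control cells, and their summed level was 1562 to 2063 CPM in control cells, 1964 to 2106 with scramble ectosomes and 3572 to 3860 with PKM2-knockdown ectosomes. Of the 12, 3 rose and 7 fell with scramble ectosomes, and 8 were higher and 0 lower with PKM2-knockdown than with scramble ectosomes. With PKM2-knockdown ectosomes against control, 5 were higher and 4 lower. In the same order, 67.8%, 61.6% and 53.7% of all tested rows were called. Of 20 hepatocyte markers, 11 were in the rows used, and they summed to 3.75 to 8.91, 7.14 to 7.74 and 41.7 to 48.6 CPM. SERPINA1 made up most of the sum with PKM2-knockdown ectosomes, at a mean of 37.4 CPM. ALB had 7, 7 and 27 reads over the libraries of each group, and TTR and HNF4A had 0 in control cells and with PKM2-knockdown ectosomes and 7 and 10 with scramble ectosomes. The part of either marker list in the results below was not tested. In bulk RNA, fewer cells of a type and less RNA per cell cannot be told apart.

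With scramble ectosomes, 6 members rose and 3 fell against control, and HSPA1B did not pass. HSPA6 and HSPH1 rose most, 3.15-fold and 2.03-fold. The HSP90 genes, DNAJB1 and HSPA1A rose by less than 1.5-fold, while HSPA8, HSPB1 and HSPA7 fell. This share called must be read against the 67.8% of all tested rows that passed in this comparison, 34.6% higher and 33.2% lower. The median log2 fold change of the members was 0.31, against -0.01 for all rows, and their median absolute change of 0.76 was close to the 0.74 of all rows. In 9 members the 2 groups did not overlap, as in 71.3% of all rows. HSPA6, HSPA7, HSPA8, HSPH1 and HSPB1, 5 of the 10, were called at 2-fold or more, as were 36.6% of all rows.

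Between the ectosomes, PKM2-knockdown against scramble, 5 members were lower and 2 higher with PKM2-knockdown ectosomes, where 61.6% of all rows passed, 31.4% higher and 30.3% lower. HSPH1, HSP90AA1, HSP90AB1, HSPA1A and DNAJB1, all of them raised by scramble ectosomes, were lower, and HSPA7 and HSPB1 were higher. The median log2 fold change was -0.25, against 0.03 for all rows, and the median absolute change 0.49 against 0.61. In 8 members the groups did not overlap, as in 74.5% of all rows, and 1 member, HSPA7, was called at 2-fold or more, as were 28.8% of all rows. This comparison shares its scramble libraries with the first, so the opposite directions are not independent of each other.

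Against control, PKM2-knockdown ectosomes left 6 members short of the threshold. HSPA6 and HSPA7 rose, HSPA8 and HSPB1 fell, and 53.7% of all rows passed, 27.0% higher and 26.7% lower. The median log2 fold change was -0.05, against -0.01 for all rows, and the median absolute change was 0.16 against 0.50. In 5 members the groups did not overlap, as in 60.5% of all rows, and 3 members were called at 2-fold or more, as were 21.8% of all rows. When control replicate 3 was left out, the members called numbered 8 (5 higher, 3 lower) for scramble ectosomes against control, 8 (2 and 6) between the ectosomes, and 6 (3 and 3) when PKM2-knockdown ectosomes were set against control. In that fit 71.6%, 71.5% and 57.7% of 19053 tested rows were called in the same order of comparisons, 36.9%, 36.1% and 29.1% higher and 34.7%, 35.4% and 28.6% lower.

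**Figure D1:**
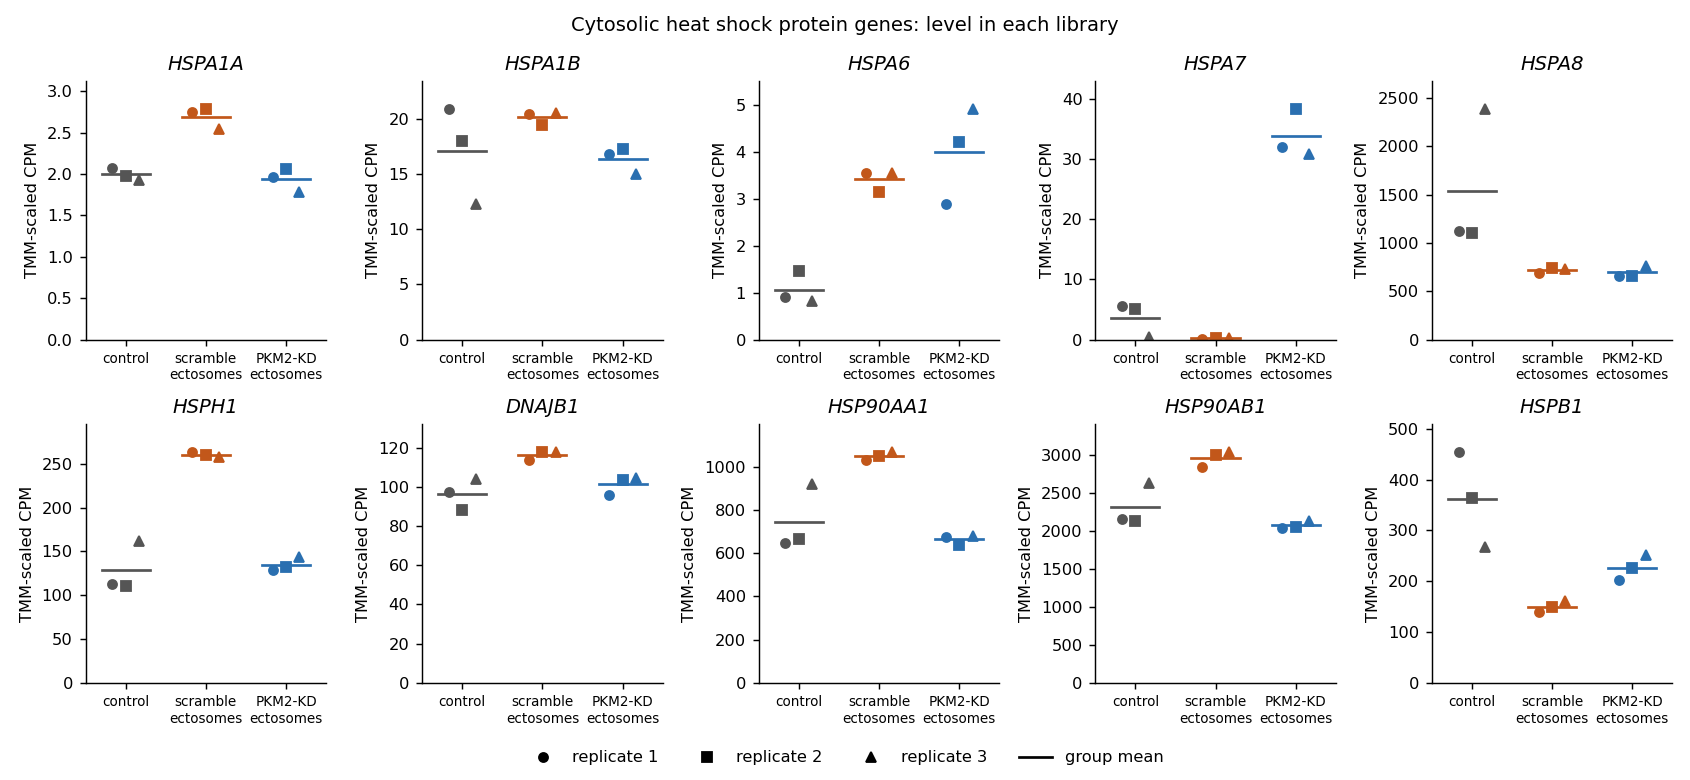
Level of each member in every library, in TMM-scaled CPM (vertical axes from 0, each gene on its own scale), with the group mean as a line and the replicate number as the symbol. HSPH1, HSP90AA1 and HSP90AB1 are highest in the 3 libraries with scramble ectosomes, HSPA7 is highest with PKM2-knockdown ectosomes, and control replicate 3 stands above the other controls for HSPA8 and below them for HSPA7.

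**Figure D2:**
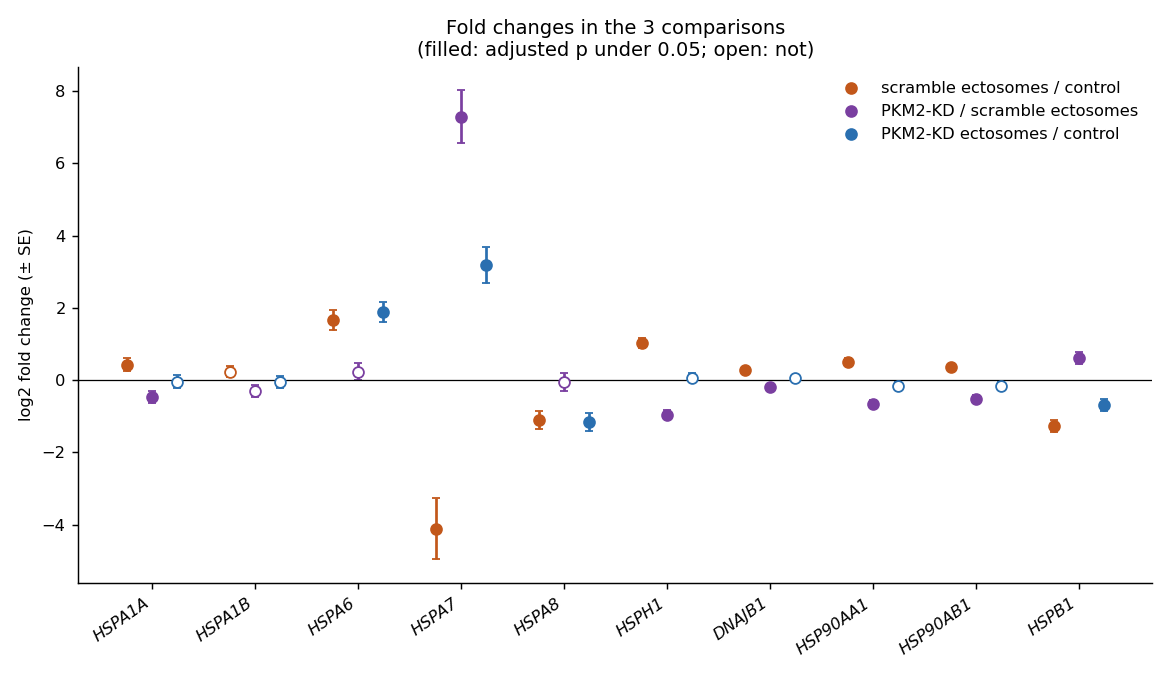
The log2 fold change of each member in the 3 comparisons, with its SE as the bar, filled where adjusted p was under 0.05 and open otherwise. For HSPH1, DNAJB1, HSP90AA1 and HSP90AB1 the point for scramble ectosomes lies above 0 and the point between the ectosomes below it, while HSPA7 and HSPB1 show the opposite order.

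The stress-inducible HSP70 genes HSPA1A (chr6:31815464-31817946, plus strand) and HSPA1B (chr6:31827735-31830255, plus strand) are neighbours in the major histocompatibility complex, 9789 bases apart, and encode nearly the same protein. HSPA1A was at 2.08, 1.98 and 1.93 CPM in the control libraries, 2.75, 2.79 and 2.54 with scramble ectosomes and 1.96, 2.06 and 1.78 with PKM2-knockdown ectosomes. Scramble libraries were the 3 highest and the other groups overlapped. The rise with scramble ectosomes was 1.35-fold (log2 0.43, SE 0.17, adjusted p = 0.0445) and the difference between the ectosomes 1.39-fold (log2 -0.47, SE 0.17, adjusted p = 0.0331). Both calls were slight: of 16 other settings 15 ended the first, with adjusted p up to 0.268, and 11 ended the second. With 34 to 61 reads a library, HSPA1A was also thinly counted.

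HSPA1B was at 20.9, 18.0 and 12.3 CPM in control libraries, 20.4, 19.5 and 20.5 with scramble ectosomes, and 16.8, 17.3 and 15.0 with PKM2-knockdown ectosomes. Control replicate 3 was the lowest of all 9 libraries, so the controls spanned the other groups, while the ectosome groups did not overlap. None of the 3 comparisons passed, the adjusted p being 0.220 for scramble ectosomes against control, 0.137 between the ectosomes and 0.776 for PKM2-knockdown ectosomes against control. Without control replicate 3, HSPA1B was 1.23-fold lower with PKM2-knockdown than with scramble ectosomes (adjusted p = 0.00611) and 1.19-fold lower than in control (adjusted p = 0.0409), but still did not differ by the test between scramble ectosomes and control (log2 0.05, adjusted p = 0.658). Summed, the HSPA1A and HSPA1B pair gave log2 0.26 with scramble ectosomes (adjusted p = 0.152).

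HSPA8 (chr11:123057489-123063230, minus strand) encodes HSC70, the constitutive HSP70 that folds new proteins and strips clathrin from vesicles. Control libraries stood at 1124, 1107 and 2389 CPM, scramble libraries at 691, 736 and 729, and PKM2-knockdown libraries at 658, 660 and 763. All controls were above all libraries with ectosomes, and control replicate 3 was far above the other controls. HSPA8 fell 2.14-fold with scramble ectosomes (log2 -1.10, SE 0.25, adjusted p = 0.00241), and the fall was 2.22-fold with PKM2-knockdown ectosomes (adjusted p = 0.00265). Between the ectosomes the log2 difference was -0.05 (SE 0.25, adjusted p = 0.870). With that library left out, the falls were 1.55-fold (adjusted p = 4.8e-08) and 1.61-fold (adjusted p = 2.93e-08), so both calls held but at a smaller size.

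The log2 ratio of HSPA1A plus HSPA1B counts to HSPA8 counts needs no scaling between libraries. It was -5.61, -5.79 and -7.39 in control libraries, -4.90, -5.04 and -4.98 with scramble ectosomes and -5.13, -5.09 and -5.50 with PKM2-knockdown ectosomes. No pair of groups overlapped, and the inducible pair was highest against HSPA8 with scramble ectosomes. Each comparison gave the smallest p that 3 libraries against 3 allow (two-sided exact permutation p = 0.10, adjusted over 9 tests 0.1125), so none could pass 0.05. The difference between scramble ectosomes and control, 1.29 on the log2 scale, was 0.72 without control replicate 3, and that between PKM2-knockdown ectosomes and control, 1.02, was 0.46.

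HSPH1 (chr13:31134974-31162388, minus strand) encodes HSP105, an HSP110 protein that exchanges the nucleotide of HSP70 and holds unfolded proteins. It was at 113, 110 and 162 CPM in control libraries, 264, 260 and 258 with scramble ectosomes and 128, 132 and 144 with PKM2-knockdown ectosomes. Scramble libraries lay close together and far above the rest, and the other groups overlapped. HSPH1 rose 2.03-fold with scramble ectosomes (log2 1.02, SE 0.13, adjusted p = 4.9e-05) and was 1.94-fold lower with PKM2-knockdown than with scramble ectosomes (adjusted p = 0.000111). Against control, PKM2-knockdown ectosomes gave 1.05-fold (adjusted p = 0.683). Without control replicate 3, the highest control, that last difference became 1.20-fold and passed (adjusted p = 0.0011).

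DNAJB1 (chr19:14514770-14529770, minus strand) encodes HSP40, the J-domain partner that starts the ATP cycle of HSP70. Its levels were 97.6, 88.2 and 104 CPM in control libraries, 114, 118 and 118 with scramble ectosomes, and 96.1, 104 and 105 with PKM2-knockdown ectosomes. Scramble libraries were again the highest, by a narrow margin. It rose 1.21-fold with scramble ectosomes (log2 0.27, SE 0.08, adjusted p = 0.0104) and was 1.15-fold lower with PKM2-knockdown than with scramble ectosomes (adjusted p = 0.0464). Scaling by library totals ended both calls (adjusted p = 0.376 and 0.746), and 10 of 15 other settings ended the second.

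HSP90AA1 (chr14:102080738-102139699, minus strand) encodes the inducible cytosolic HSP90. It was at 645, 666 and 918 CPM in control libraries, 1031, 1051 and 1068 with scramble ectosomes and 676, 637 and 679 with PKM2-knockdown ectosomes. Scramble libraries were above all others, and control replicate 3 stood between them and the rest. The gene rose 1.41-fold with scramble ectosomes (log2 0.50, SE 0.12, adjusted p = 0.00398) and was 1.58-fold lower with PKM2-knockdown ectosomes than with scramble ones (adjusted p = 0.000812). PKM2-knockdown ectosomes against control gave log2 -0.16 (adjusted p = 0.287), and 0.01 without control replicate 3 (adjusted p = 0.841).

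HSP90AB1 (chr6:44246166-44253888, plus strand) encodes the constitutive cytosolic HSP90. It was at 2155, 2133 and 2634 CPM in control libraries, 2844, 2995 and 3036 with scramble ectosomes and 2033, 2053 and 2127 with PKM2-knockdown ectosomes, an order without overlap between any of the groups. The rise with scramble ectosomes was 1.28-fold (log2 0.36, SE 0.09, adjusted p = 0.00537), and the difference between the ectosomes 1.43-fold (adjusted p = 0.000673). Scaling by library totals ended the rise (adjusted p = 0.0929) but not the difference between the ectosomes. Against control, PKM2-knockdown ectosomes gave log2 -0.16 (adjusted p = 0.180), and -0.05 with control replicate 3 left out (adjusted p = 0.444).

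The inducible and constitutive HSP90 genes kept nearly the same ratio. The log2 ratio of HSP90AA1 to HSP90AB1 counts was -1.74, -1.68 and -1.52 in control libraries, -1.46, -1.51 and -1.51 with scramble ectosomes, and -1.59, -1.69 and -1.65 with PKM2-knockdown ectosomes. Scramble libraries were highest without overlap, by 0.15 over either group (exact permutation p = 0.10 in both comparisons, adjusted 0.1125), while control cells and those given PKM2-knockdown ectosomes overlapped (exact p = 1). With control replicate 3 left out, the difference between scramble ectosomes and control was 0.22 on the log2 scale.

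HSPB1 (chr7:76302544-76304295, plus strand) encodes HSP27, a small heat shock protein that holds unfolded proteins without ATP and binds actin filaments. It ran against the HSP90 genes: 455, 364 and 268 CPM in control libraries, 139, 148 and 160 with scramble ectosomes, and 203, 225 and 251 with PKM2-knockdown ectosomes. The groups did not overlap, although control replicate 3 came close to the PKM2-knockdown libraries. HSPB1 fell 2.43-fold with scramble ectosomes (log2 -1.28, SE 0.17, adjusted p = 4.7e-05), and the fall was 1.60-fold with PKM2-knockdown ectosomes (adjusted p = 0.00498). It was 1.52-fold higher with PKM2-knockdown than with scramble ectosomes (adjusted p = 0.00828).

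Without control replicate 3 the other calls against control kept their direction. With scramble ectosomes the rise was 2.33-fold for HSPH1, 1.25-fold for DNAJB1, 1.60-fold for HSP90AA1 and 1.38-fold for HSP90AB1, each past the threshold. HSPA1A, at 1.33-fold, no longer passed (adjusted p = 0.0858). With PKM2-knockdown ectosomes HSPA1A (log2 -0.07, adjusted p = 0.818) and DNAJB1 (log2 0.13, adjusted p = 0.109) did not pass, as in all 9 libraries. HSPB1 fell 2.75-fold with scramble and 1.81-fold with PKM2-knockdown ectosomes, and both calls held.

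HSPA6 (chr1:161524540-161526910, plus strand) encodes HSP70B', an HSP70 that is nearly silent until strong stress. It was at 0.91, 1.46 and 0.83 CPM in control libraries, 3.57, 3.16 and 3.55 with scramble ectosomes, and 2.90, 4.22 and 4.93 with PKM2-knockdown ectosomes. These were 15 to 94 reads a library. Both ectosome groups lay above the controls and overlapped each other. HSPA6 rose 3.15-fold with scramble ectosomes (log2 1.66, SE 0.27, adjusted p = 0.000278), and the rise was 3.68-fold with PKM2-knockdown ectosomes (adjusted p = 0.000182). Between the ectosomes, log2 0.23 (SE 0.24) did not pass (adjusted p = 0.428). Leaving out control replicate 3 gave rises of 2.83-fold and 3.30-fold, both past the threshold.

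HSPA7 (chr1:161606291-161608217, plus strand) is a copy of HSPA6 that lies 79381 bases away and is annotated as an unprocessed pseudogene. It was at 5.54, 5.08 and 0.39 CPM in control libraries, 0.09, 0.26 and 0.29 with scramble ectosomes and 32.1, 38.4 and 31.0 with PKM2-knockdown ectosomes. In reads these were 104, 118 and 7, then 2, 5 and 6, then 655, 820 and 591. No groups overlapped, but control replicate 3 stood next to the scramble libraries. The difference between the ectosomes was 157-fold (log2 7.29, SE 0.73, adjusted p = 1.1e-05), and its size rests on only 13 reads over the scramble libraries. HSPA7 fell 17.3-fold with scramble ectosomes (adjusted p = 0.00136) and rose 9.08-fold with PKM2-knockdown ectosomes (adjusted p = 0.000324), and without control replicate 3 these were 24.6-fold and 6.38-fold.

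The copies therefore went opposite ways with scramble ectosomes, while both rose with PKM2-knockdown ectosomes against control. The log2 ratio of HSPA6 to HSPA7 counts was -2.58, -1.78 and 1.05 in control libraries, 4.99, 3.46 and 3.52 with scramble ectosomes and -3.46, -3.18 and -2.65 with PKM2-knockdown ectosomes. No groups overlapped, and each comparison gave the smallest p that the design allows (exact permutation p = 0.10, adjusted 0.1125). The log2 difference from control was 5.09 with scramble and -1.99 with PKM2-knockdown ectosomes, and 6.17 and -0.92 with control replicate 3 left out. Where reads of both were summed, scramble ectosomes gave log2 -0.40 against control and did not pass (adjusted p = 0.421), and PKM2-knockdown ectosomes gave 3.38 against scramble ectosomes (adjusted p = 3.45e-05). How many reads the copies exchanged was not tested.

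Each copy lies just after an Fc gamma receptor gene on the same strand, FCGR2A ending 527 bases before HSPA6 and FCGR2C 629 bases before HSPA7. These neighbours were chosen after their values were seen. FCGR2A had means of 43.9, 79.6 and 69.6 CPM in control, scramble and PKM2-knockdown libraries, 1.81-fold higher with scramble ectosomes (adjusted p = 4.1e-05). FCGR2C was at 5.43, 5.47 and 0.99 CPM in control libraries, 0.59, 0.63 and 0.38 with scramble ectosomes and 36.8, 43.7 and 33.1 with PKM2-knockdown ectosomes, 70.3-fold higher than with scramble ectosomes (adjusted p = 2.8e-06). HSPA7 and FCGR2C thus had the same order of groups, the same low control replicate 3 and similar levels in CPM. A higher level with PKM2-knockdown ectosomes was not particular to this pair. FCGR2B had means of 0.336, 0.179 and 10.3 CPM in control, scramble and PKM2-knockdown libraries. Its control and scramble libraries overlapped (adjusted p = 0.205). It was 55.9-fold higher with PKM2-knockdown than with scramble ectosomes (adjusted p = 9.2e-07), on 621 against 11 reads. FCGR3A was 10.5-fold higher (adjusted p = 0.00077), on 45 against 4 reads, and FCGR3B had too few reads to be tested. Control cells also had 4 FCGR3A reads, so FCGR3A shared only the high PKM2-knockdown level. Sequence shared among the Fc receptor genes was not measured. Whether reads counted for HSPA7 came from transcripts that start at FCGR2C was not tested.

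**Figure D3:**
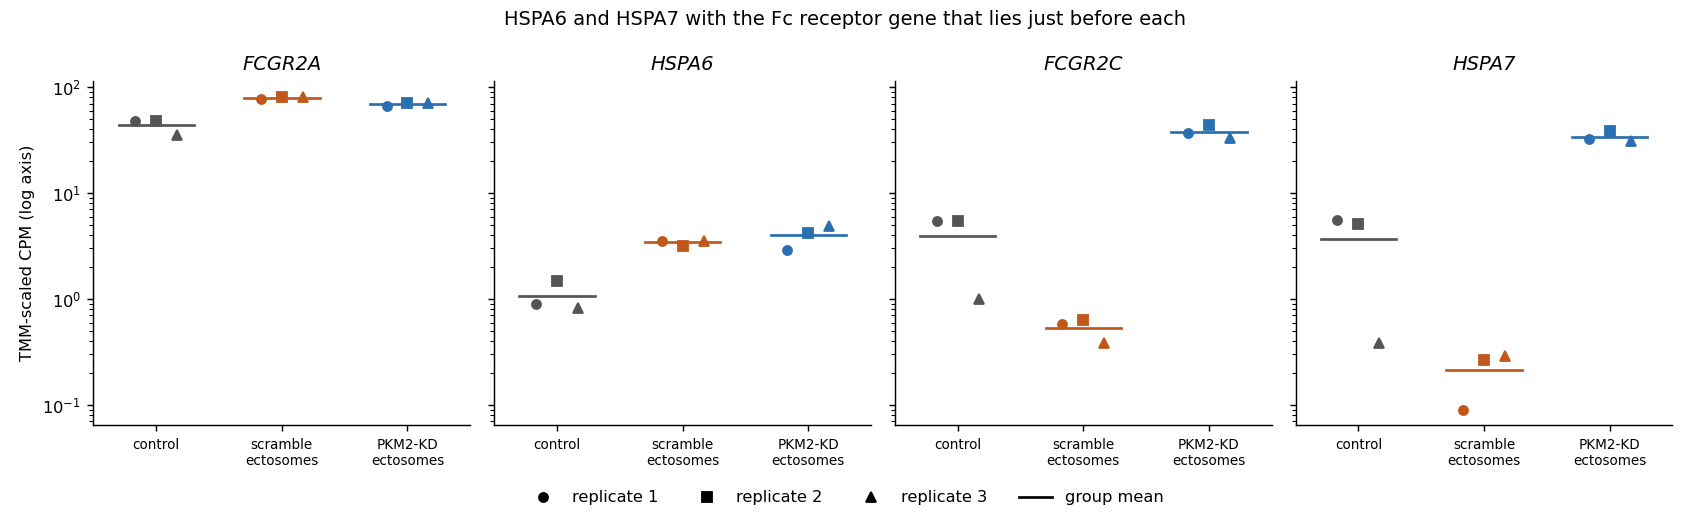
HSPA6 and HSPA7 beside the Fc gamma receptor gene before each, in TMM-scaled CPM on a log axis, 1 point a library and the group mean as a line. FCGR2C and HSPA7 are both above 30 CPM with PKM2-knockdown ectosomes and both below 1 CPM with scramble ectosomes and in control replicate 3, while HSPA6 stays between 0.8 and 5 CPM.

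**Figure D4:**
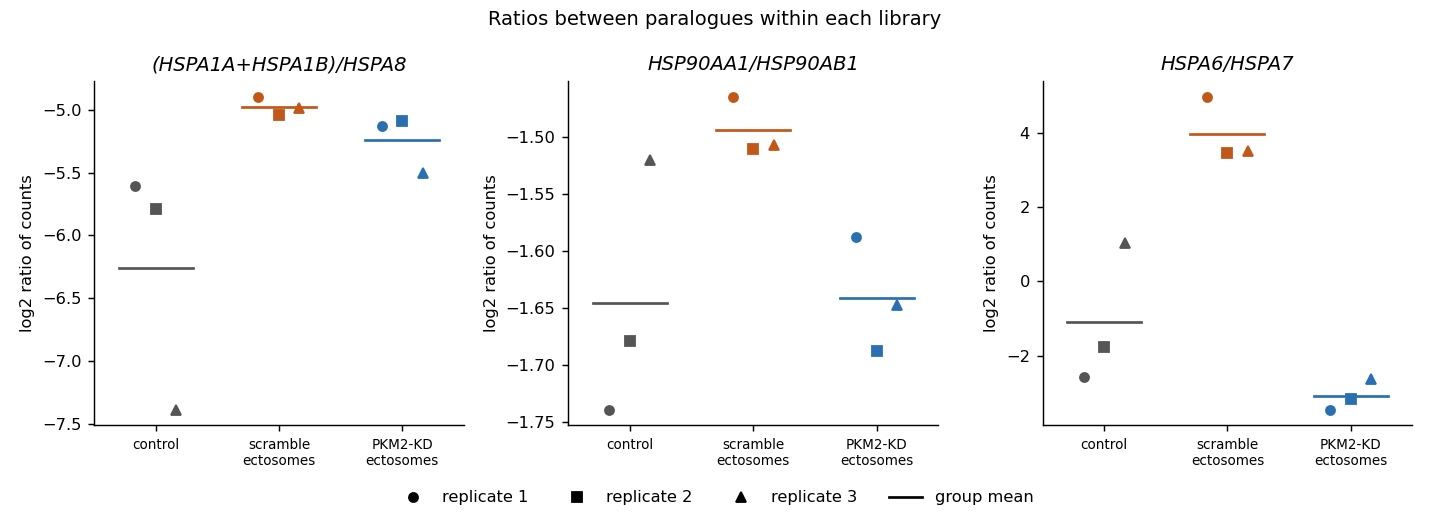
Log2 ratio of counts between related members within each library, 1 point a library and the group mean as a line, each panel on its own scale. For HSPA6 against HSPA7 the scramble libraries lie above 3 and the PKM2-knockdown libraries below -2, with control replicate 3 at 1.05 apart from the other controls.

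The order of the members' levels was read per kilobase of exon, taken as the union of all annotated exons of a gene. Exons that are little used thus lower a gene's value. Reads shared by HSPA1A and HSPA1B, or by HSPA6 and HSPA7, may have been split or left uncounted, so the places of these genes are uncertain. In control cells HSP90AB1 was highest, at 774 ± 95.0 CPM per kb (SD, n = 3), followed by HSPA8 (318 ± 152), HSPB1 (222 ± 57.1) and HSP90AA1 (142 ± 28.9), of which neighbours differed by less than their summed SDs except HSP90AB1. DNAJB1 (26.3 ± 2.16), HSPH1 (15.3 ± 3.45) and HSPA1B (6.78 ± 1.74) formed the middle, and HSPA7 (1.90 ± 1.48), HSPA1A (0.804 ± 0.0299) and HSPA6 (0.449 ± 0.146) the bottom, where HSPA7 and HSPA1A lay within their spread. With scramble ectosomes HSP90AB1 stood at 993 ± 33.9, and HSP90AA1 (200 ± 3.59) passed HSPA8 (148 ± 5.02) and HSPB1 (91.3 ± 6.60). HSPH1 (31.0 ± 0.326) reached DNAJB1 (31.7 ± 0.594), and HSPA7 came last at 0.111 ± 0.0558. With PKM2-knockdown ectosomes HSPA8 (143 ± 12.4), HSPB1 (139 ± 14.7) and HSP90AA1 (127 ± 4.46) lay within their spread, and HSPA7 (17.6 ± 2.08) stood beside HSPH1 (16.0 ± 0.947).

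The family took 0.398% to 0.663% of a library's counts, the most in control replicate 3. In CPM, the HSP90 genes made up 54.7% to 62.3% of the family in control libraries, 75.8% to 76.1% with scramble ectosomes and 68.1% to 70.4% with PKM2-knockdown ectosomes. HSPA8 made up 24.3% to 36.8%, 13.5% to 13.8% and 17.1% to 18.5%. The HSP90 share was thus larger and the HSPA8 share smaller with either kind of ectosome, in all 6 libraries. With PKM2-knockdown ectosomes this was a change of share only, as HSP90AA1 and HSP90AB1 were each at log2 -0.16 against control. The family there summed to 3849 to 4122 CPM, against 4496 to 6490 CPM in control libraries.

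Genes that work with these chaperones were read from 10 lists. Of 8 heat shock factors and their partners, 4 rose and 3 fell with scramble ectosomes, and 1 was higher and 5 lower with PKM2-knockdown than with scramble ectosomes. The coactivator genes CREBBP and EP300 rose 2.76-fold (97.2 to 268 CPM, adjusted p = 1.8e-07) and 2.06-fold (148 to 305 CPM), HSBP1, whose protein binds HSF1 trimers, rose 1.43-fold, and HSF4 fell 2.53-fold from 10.8 to 4.27 CPM. HSF1 itself, named after its values were seen, rose 1.21-fold with scramble ectosomes, from 155 ± 12.7 to 188 ± 1.74 CPM (adjusted p = 0.00943), and was at a mean of 156 CPM with PKM2-knockdown ectosomes.

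Of 7 other HSP70 and HSP110 genes tested, 4 rose and 2 fell with scramble ectosomes, and 1 was higher and 4 lower between the ectosomes. HSPA4L, an HSP110 relative of HSPH1, went from 18.0 to 30.6 and 10.4 CPM, and HSPA13 from 70.8 to 196 and 62.6 CPM, in control, scramble and PKM2-knockdown libraries. HSPA14, an HSP70 found at ribosomes, fell 1.36-fold with scramble ectosomes. Of 17 cytosolic J-domain genes, 13 rose and 2 fell with scramble ectosomes, and 1 was higher and 13 lower between the ectosomes. Against control, 6 of the 17 were still higher and 2 lower with PKM2-knockdown ectosomes: DNAJB2, a J-domain protein that hands clients to the proteasome, was 3.55-fold higher with scramble ectosomes and 2.99-fold higher with PKM2-knockdown ectosomes, and DNAJB5 5.75-fold and 4.70-fold.

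Of 14 nucleotide exchange factors and co-chaperones of HSP70, 7 rose and 3 fell with scramble ectosomes, which scaling by library totals turned into 5 and 5. Between the ectosomes 11 were lower and the other 3 did not pass, whereas by library totals those 3 were higher. BAG3, an HSF1 target that links HSP70 to autophagy, went from 26.3 ± 4.25 to 75.9 ± 2.72 CPM with scramble ectosomes (2.89-fold, adjusted p = 8.1e-07) and stood at 34.9 ± 3.00 CPM with PKM2-knockdown ectosomes, 2.18-fold lower. BAG2, an inhibitor of the ubiquitin ligase CHIP, went from 32.0 to 51.3 and 20.4 CPM. Of 20 co-chaperones of HSP90, 13 rose and 4 fell with scramble ectosomes (9 and 5 by library totals), and 3 were higher and 12 lower between the ectosomes. AHSA1, which speeds the ATPase of HSP90, went from 88.8 to 142 and 70.5 CPM, while PIH1D1, a part of the R2TP complex, fell 2.75-fold, from 123 to 44.6 CPM, and stood at 104 CPM with PKM2-knockdown ectosomes.

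Of 4 genes tested in the list of small heat shock genes, all with an HSPB symbol, 1 rose and 2 fell with scramble ectosomes. HSPB11 fell 1.90-fold, from 87.3 to 45.8 CPM, and stood at 71.5 CPM with PKM2-knockdown ectosomes, the same order of groups as HSPB1. Whether HSPB11 acts as a small heat shock protein was not examined. HSPB6, with group means below 2 CPM, went the other way. Of 14 genes of the CCT chaperonin and prefoldin, which fold actin and tubulin, 9 rose and 2 fell with scramble ectosomes (5 and 5 by library totals), 1 was higher and 9 lower between the ectosomes, and 10 were lower with PKM2-knockdown ectosomes than in control. PFDN2 rose 3.49-fold, from 78.8 to 275 CPM, and was at 74.1 CPM with PKM2-knockdown ectosomes, and CCT5 went from 473 to 625 and 278 CPM.

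The mitochondrial chaperones and those of the endoplasmic reticulum gave a wider range. Where in the cell the proteins of the lists above reside was not checked. Of 12 mitochondrial ones, 6 rose and 1 fell with scramble ectosomes, 1 was higher and 8 lower between the ectosomes, and 1 was higher and 7 lower with PKM2-knockdown ectosomes than in control. HSPA9, the mitochondrial HSP70, went from 538 to 899 and 312 CPM, and TRAP1, the mitochondrial HSP90, fell 2.51-fold with scramble and 2.68-fold with PKM2-knockdown ectosomes. Of 14 chaperones of the endoplasmic reticulum, all 14 rose with scramble ectosomes and all 14 were lower with PKM2-knockdown ectosomes than with scramble ones, also by library totals. Their median log2 fold change was 2.98 with scramble ectosomes, against 0.31 for the cytosolic members and -0.01 for all rows. HYOU1, the HSP110 protein of that compartment and thus the counterpart of HSPH1, rose 13.2-fold, from 214 to 2835 CPM, where HSPH1 rose 2.03-fold. DNAJB11, the counterpart of DNAJB1, rose 10.1-fold, from 39.2 to 397 CPM, where DNAJB1 rose 1.21-fold.

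Of 23 other heat-induced genes tested, some of which stand in the lists above too, 16 rose and 1 fell with scramble ectosomes, 1 was higher and 15 lower between the ectosomes, and 11 were higher and 5 lower with PKM2-knockdown ectosomes than in control. HMOX1, a heme-degrading enzyme that many stresses induce, went from 1.85 ± 1.13 to 145 ± 4.42 CPM and was at 37.5 ± 3.39 CPM with PKM2-knockdown ectosomes. ZFAND2A, a heat and arsenite induced gene, went from 39.3 to 71.1 and 26.3 CPM. Without control replicate 3, the counts of genes that rose and fell with scramble ectosomes were 5 and 3 for heat shock factors, 4 and 2 for other HSP70 genes, 13 and 2 for J-domain genes, 8 and 2 for HSP70 co-chaperones and 15 and 4 for HSP90 co-chaperones. They were 1 and 2 for small heat shock genes, 9 and 2 for the chaperonin and prefoldin, 7 and 1 for mitochondrial chaperones and 16 and 1 for other heat-induced genes, and all 14 chaperones of the endoplasmic reticulum again rose. List counts over all 9 libraries, TMM-scaled, must be read against 67.8%, 61.6% and 53.7% of all rows called in the 3 comparisons. Those without control replicate 3 must be read against 71.6% called, 36.9% higher and 34.7% lower. For the counts by library totals the share of all rows called is not given here, so they are read against none. No list was tested as a set.

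**Figure D5:**
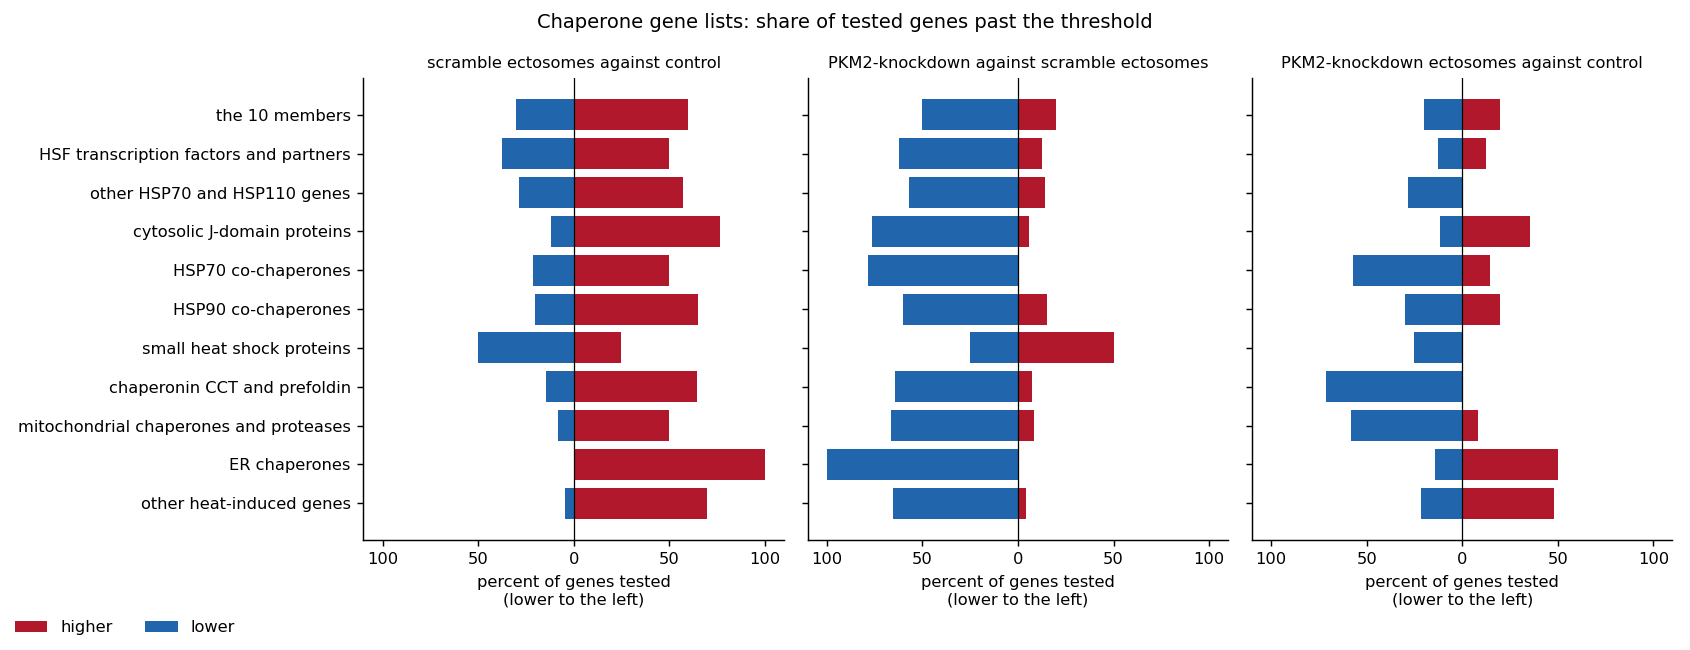
Share of the tested genes of each list past the threshold in the 3 comparisons, in percent, higher to the right and lower to the left. Genes of the endoplasmic reticulum reach 100% higher with scramble ectosomes and 100% lower between the ectosomes. With this TMM scaling the other lists lean the same way by smaller shares, except the small heat shock genes. With scramble ectosomes the heat shock factors lean by only 4 against 3, where 34.6% of all rows were higher and 33.2% lower. By library totals that lean was gone for the HSP70 co-chaperones and for the chaperonin and prefoldin.

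By Pearson correlation of log2 CPM over the 9 libraries, the genes most like HSPA1A among 11029 candidates were PREPL (r = 0.986), ARRDC4 (0.986), ZBTB10 (0.983), POMK (0.983) and GOSR1 (0.982). They share with it high scramble libraries: ARRDC4, for instance, had means of 10.7, 82.4 and 8.22 CPM in control, scramble and PKM2-knockdown libraries. Most like HSPA8 were MFSD14B (r = 0.995), SRSF7 (0.994), WDR70 (0.992), METAP1 (0.992) and SYNCRIP (0.988), which share a high control replicate 3. SYNCRIP was at 276, 274 and 438 CPM in the control libraries, as HSPA8 was at 1124, 1107 and 2389. With 3 groups and 1 library that stands apart, correlations of this size rest on few differences between libraries and are a description only.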

How the data were processed

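The authors deposited raw read counts per gene symbol for the 9 libraries. RNA was extracted with Trizol and sequenced on Illumina HiSeq after a NEBNext Ultra preparation, per the labels' protocols. Per the submitters' processing notes, the tools were HISAT2 2.0.5 and featureCounts 1.5.0-p3 and the build was GRCh38/hg38. The strand setting and annotation release: not given in the sources used here. Rows totalling under 4 counts were not in the table, and 355 rows repeat a symbol. The counts were fitted with edgeR 4.0.16 in R 4.3.3: filterByExpr, TMM, 1 quasi-likelihood model over all 9 libraries with group as the only term (6 residual degrees of freedom), two-sided, Benjamini-Hochberg over 18437 rows. The tested rows held at least 99.8% of each library's counts. SE is the absolute log2 fold change over the square root of F. Paralogue ratios used a pseudocount of 0.5 counts. The test was checked on simulated data. Alternatives were DESeq2 1.42.0 (size factors and Wald test), library totals, no filter, a replicate block, the compared groups alone, leaving out each library and summing near-identical copies. The members and gene lists were chosen with earlier results of these data known. Named genes are all members, up to 4 genes of each list with the smallest p, of which some are given, and the 5 genes most like HSPA1A and HSPA8 with a mean of at least 5 CPM.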

Additional observations from a re-analysis of the deposited data

How the results depend on the processing

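Of 461 other settings over 30 member results, 415 kept the side of the threshold and, where called, the direction, and 18 results did so throughout. Of these 18, 3 that were never called changed sign: HSPA8 between the ectosomes (log2 -0.12 to 0.12), and HSP90AA1 (-0.26 to 0.01) and HSPA1A (-0.08 to 0.01) with PKM2-knockdown ectosomes against control. The calls of HSPA7, HSPA8, HSPH1, HSP90AA1 and HSPB1 held in every setting that gave a value, save for HSPA7 when summed with HSPA6. Summing HSPA6 with HSPA7 turned the rise of HSPA6 with scramble ectosomes to log2 -0.40 (adjusted p = 0.421). With a pseudocount of 5 counts the log2 difference of the HSPA6 to HSPA7 ratio between the ectosomes was -6.07, against -7.09. Scaling by library totals moved the median of all rows to log2 -0.21 for scramble ectosomes against control, 0.20 between the ectosomes and -0.04 for PKM2-knockdown ectosomes against control, and the share of calls that were higher from 51.0% to 40.2%, from 50.9% to 61.9% and from 50.3% to 47.2%. Members called were then 6 (3 higher, 3 lower), 5 (2 and 3) and 4 (2 and 2). The share of all rows called in that fit is not printed here, so these counts are not read against it. HSPA1B passed with scramble ectosomes without control replicate 1 (adjusted p = 0.043), and between the ectosomes with only the 6 libraries compared (adjusted p = 0.00701). HSPA7 against control gave no value in the 6 libraries with scramble ectosomes and control alone.

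No pairing by replicate number was seen: correlations of deviations ran from -0.09 to 0.07 between same-numbered libraries and from -0.07 to 0.07 between others. This cannot show whether same-numbered libraries were prepared together. With a replicate block, 8, 5 and 4 members were called, HSPA1A losing both calls (adjusted p = 0.0707 and 0.0558) and DNAJB1 the one between the ectosomes (0.062), while 12179, 11035 and 9401 of all rows were called. Leaving out control replicate 3 and library totals for the gene lists were settings chosen after seeing the data. Reads limit HSPA1A, HSPA6 and, with scramble ectosomes, HSPA7.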
